A study of Bos taurus with 30 samples.

Results

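Leptin is the hormone encoded by *LEP*, listed in the deposited table under the Ensembl identifier ENSBTAG00000014911, and it is 1 of the 24596 genes of that table. It was chosen by its identifier, with earlier results of these data known. Its expression was measured by RNA-seq in omental visceral adipose tissue, the fat of the membrane that hangs from the stomach, of 30 Angus × Holstein-Friesian heifer calves at 21 weeks of age, with 1 library per calf. From 2 weeks of age, per the labels, 15 calves were fed a High plane of nutrition (HI) and 15 a Moderate plane (MOD). HI calves were reared for a target gain of 1.2 kg per day, on 10 litres of reconstituted milk replacer daily (1.5 kg of powder) and unrestricted concentrate. MOD calves were reared for 0.5 kg per day, on 4 litres of milk replacer (0.5 kg of powder) and 1 kg of concentrate. The milk-feeding phase of 8 weeks was followed by 11 weeks without milk, when HI calves kept unrestricted concentrate, MOD calves stayed at 1 kg, and both diets had hay. The labels name no other treatment for either diet. The calf numbers used here are those of the sample titles.

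Leptin is secreted into the blood mainly by adipocytes, and its messenger RNA is known to rise as fat cells fill and to fall with fasting. The hormone binds the leptin receptor, LEPR, in the hypothalamus and signals through the kinase JAK2 and the transcription factor STAT3 to report the energy stores of the body, which restrains appetite. In heifers it is also known as a permissive signal for the onset of puberty, which is one reason its expression in early life is of interest.

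The values are counts per 1000000 reads after TMM normalization, the scaling of edgeR that sets libraries on a common level by their middle genes (TMM-normalized CPM). Each library held 11847883 to 19383275 reads assigned to genes. For the comparison of diets, limma was fitted to all genes as log2(value + 0.5), where changes at low levels appear smaller than they are. HI calf 2120, MOD calf 975 and MOD calf 911 stand apart from the other calves on the first principal component of all genes. The main values for *LEP* are also given without them. The identifiers are not paired with gene names by any table used here, apart from *LEP*, so markers of adipocytes and of other cell types of the omentum were not analysed here. In a sample of whole tissue, fewer adipocytes and less *LEP* RNA per adipocyte cannot be told apart.

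*LEP* was higher in the visceral adipose tissue of HI than of MOD calves. In the 15 HI calves its value was lowest at 72.9 in calf 2528, had a median of 195 and was highest at 299 in calf 553. In the 15 MOD calves it was lowest at 9.35 in calf 2532, had a median of 56.2 and was highest at 168 in calf 2551. The HI calves averaged 177 ± 65.2 and the MOD calves 64.1 ± 48.8 (SD, n = 15 each). The diets therefore overlapped in part, with the top of the MOD range inside the HI range and the bottom of it far below.

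**Figure D1:**
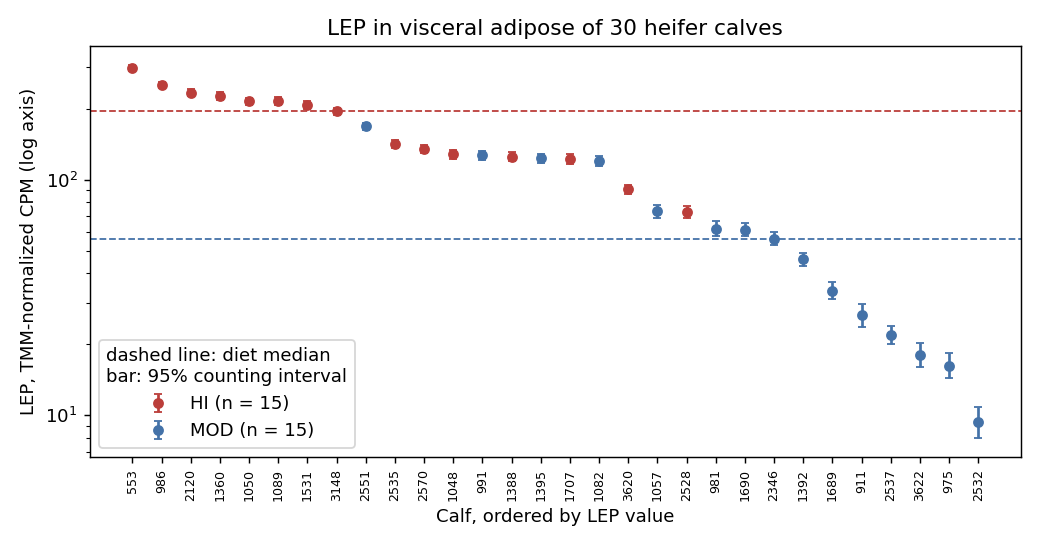
LEP value of each calf (TMM-normalized CPM, log axis), with the 30 calves in order from the highest to the lowest. Points are calves coloured by diet, bars are 95% Poisson intervals of the read count, and dashed lines are the medians of 195 in HI and 56.2 in MOD calves. The 8 highest calves are all HI and the 10 lowest are all MOD.

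Ordering the 30 calves by *LEP* placed 8 HI calves at the top, each above the highest MOD calf. At the other end 10 MOD calves lay below the lowest HI calf. The remaining 7 HI and 5 MOD calves shared the range from 72.9 to 168. Each of the 15 HI calves exceeded the MOD median, and each of the 15 MOD calves fell short of the HI median. Of the 12738 genes tested, 3.75% had all 15 HI calves above the MOD median, so this alone does not single out *LEP*. Of the 225 possible pairs of a HI and a MOD calf, the HI calf had the higher value in 208, or 92.4%. A share of pairs as high as this was reached by 127 genes, *LEP* included, which is 0.997% of the genes tested. At least 8 HI calves above the highest MOD calf were seen in 2.46% of the genes tested.

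Some neighbours in the shared range had overlapping counting intervals. MOD calf 1057 had a value of 73.3 from 1070 reads (95% Poisson interval 69.0 to 77.9), and HI calf 2528 had 72.9 from 1043 reads (68.6 to 77.5). Likewise MOD calf 991 at 127 (121 to 133) lay among HI calf 1048 at 128 (123 to 134) and HI calf 1388 at 125 (120 to 131). Within the HI group no calf lay between 141 and 195, with 8 calves above this stretch and 7 below it. That break depends on the scaling. With library size alone, HI calf 2570 at 149, calf 2120 at 157, calf 1089 at 187 and calf 1360 at 189.5 fell inside the same stretch. Within the MOD group no calf lay between 73.3 and 120, with calves 1082, 1395, 991 and 2551 above it.

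Reads on *LEP* numbered between 1043 and 4595 in HI calves and between 175 and 3288 in MOD calves. The lowest count, 175 reads in MOD calf 2532, places its value between 8.02 and 10.8. Counting error, averaged over calves, came to 0.262% of the variance between HI calves and 0.251% of the variance between MOD calves on the log2 scale. These intervals cover counting error only, not the loss or amplification of molecules when a library is made. The differences between calves of a diet were thus larger than counting error.

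On the log2 scale *LEP* averaged 7.37 ± 0.58 in HI and 5.58 ± 1.23 in MOD calves (SD, n = 15 each). The log2 fold change was 1.79, with a standard error of 0.33 and a 95% interval from 1.12 to 2.47 (limma, adjusted p = 0.000475 over all genes tested). This is a fold change of 3.47, with an interval from 2.17 to 5.55. A two-sided permutation test on the same log2 values gave p = 4e-05, beside the smallest value of 2e-05 that its 100000 resamples allow. The difference of 1.79 is larger than the log2 SD between calves of either diet, although 12 of the 30 calves lie in the range that the diets share. Single calves of a diet differed by more than the diets did, up to 18.0-fold in MOD and 4.1-fold in HI calves. As an average of the values and not of their logarithms, the HI level was 2.76 times the MOD level, and the ratio of the medians was 3.47.

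Without calves 2120, 975 and 911 the log2 fold change of *LEP* was 1.58 (95% interval from 0.88 to 2.27; limma, adjusted p = 0.00175), and the HI calf had the higher value in 90.7% of the pairs. Of the 14 HI calves left, 7 lay above the highest MOD calf and all 14 above the MOD median. Of the 13 MOD calves left, 8 lay below the lowest HI calf and 12 below the HI median. The value of HI calf 2120, the third highest, is raised by its TMM factor of 0.67, the lowest of the 30 libraries. Its *LEP* was 234 after TMM normalization and 157 when scaled by library size alone. The 2 MOD calves were both low, at 16.3 in calf 975 and 26.6 in calf 911, but calf 2532 at 9.35, calf 3622 at 18.1 and calf 2537 at 22.0 were as low without standing apart on that component.

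With each library scaled by its size alone, *LEP* had a log2 fold change of 1.61 (limma, adjusted p = 0.000745) and 7 of the 15 HI calves exceeded the highest MOD calf. With this scaling the median gene moved from a log2 fold change of -0.02 to -0.19, and relative to the median gene the change of *LEP* was 1.80 with it and 1.81 with TMM. The count models, run on whole reads recovered from the values, gave log2 fold changes of 1.47 with the exact test of edgeR (adjusted p = 7.47e-05) and 1.48 with DESeq2 (adjusted p = 9.05e-05). These models compare mean levels, and their estimates stand near the ratio of 2.76 between the mean values.

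**Figure D2:**
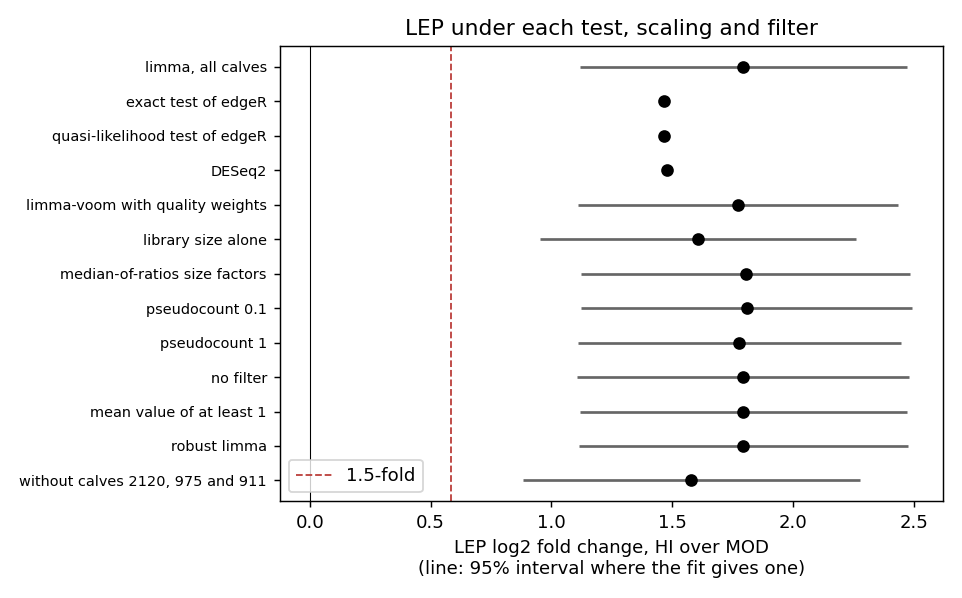
LEP log2 fold change of HI over MOD calves (horizontal axis) under each test, scaling, filter and pseudocount, and without calves 2120, 975 and 911. Points are estimates, lines are 95% intervals where the fit gives one, and the dashed line marks 1.5-fold. Estimates lie between 1.47 and 1.81, all to the right of that line.

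The place of *LEP* among all genes was taken over 12738 genes, those that exceeded a value of 1 in 15 or more of the libraries. Calling a gene required more than a 1.5-fold change and an adjusted p-value below 0.05. By this rule limma called 556 genes, or 4.36% of those tested, higher in HI calves. *LEP* was among them. Its log2 fold change was the 41st largest of all genes tested, so that 0.314% of genes rose more, and all 40 of these were themselves called. The median log2 fold change was 0.87 among the genes called higher and -0.02 among all genes tested. Of the 176 genes called higher with a mean log2 level at or above that of *LEP*, 15 rose more than *LEP* did. Ordered by p-value it came 173rd. Without calves 2120, 975 and 911 *LEP* came 52nd by log2 fold change and 503rd by p-value.

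*LEP* thus ranked higher by the size of its change than by its p-value, and its standard error was among the large ones. The standard error of 0.33 compares with a median of 0.16 over all genes tested, and 4.22% of genes had a larger one. With the exact test *LEP* came 80th by log2 fold change and 215th by p-value.

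**Figure D3:**
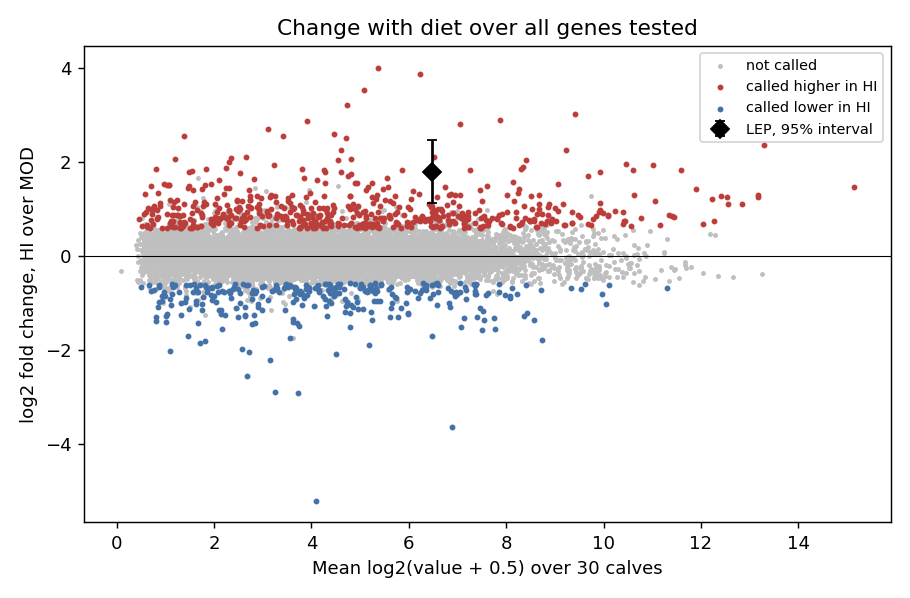
Log2 fold change of HI over MOD calves (vertical axis) against the mean log2(value + 0.5) over 30 calves (horizontal axis) for the 12738 genes tested. Red and blue points are genes called higher and lower in HI calves, grey points are not called, and the diamond is LEP at 1.79 with its 95% interval, above most of the genes called higher.

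The spread of *LEP* between calves differed between the diets. In MOD calves the highest value was 18.0 times the lowest, and in HI calves it was 4.10 times the lowest. The coefficient of variation was 76.0% in MOD and 36.8% in HI calves. On the log2 scale the mean absolute deviation from the median of the diet was 0.99 in MOD and 0.48 in HI calves, a difference of HI minus MOD of -0.51 (two-sided permutation test, p = 0.022). The call is lost without calves 2120, 975 and 911, when the difference was -0.42 (permutation p = 0.0685). It also belongs to the ratio scale, since on the values themselves the deviation was larger in HI calves, at 55.5 against 37.5 (permutation p = 0.15).

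Among all genes the spread of *LEP* was near the top in MOD calves and closer to the middle in HI calves. Its log2 SD of 1.23 in MOD calves was the 179th largest of the genes tested, whose median SD was 0.40. Its log2 SD of 0.58 in HI calves was the 3707th largest, beside a median of 0.44. Of the 2733 genes whose mean log2 level lay within 1 of that of *LEP*, 1.03% had a larger SD in MOD calves and 20.4% had a larger SD in HI calves.

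**Figure D4:**
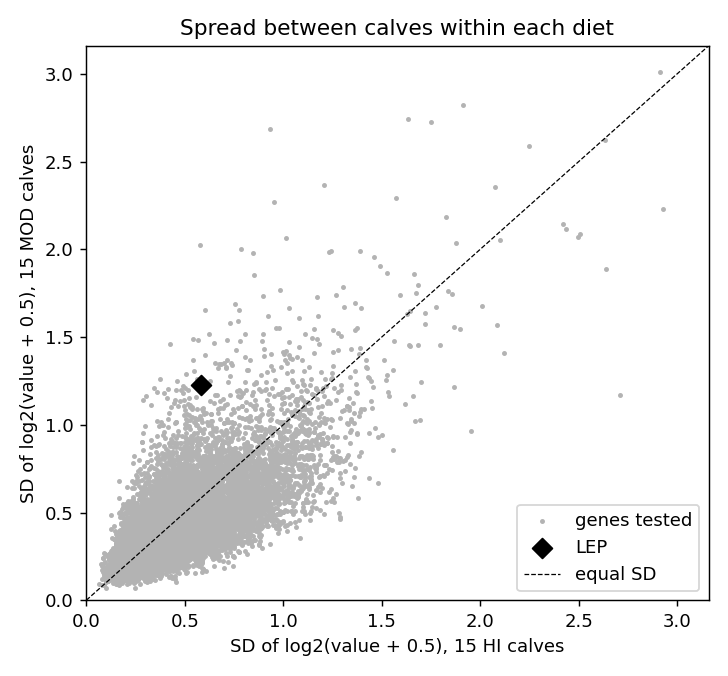
SD of log2(value + 0.5) between the 15 HI calves (horizontal axis) and between the 15 MOD calves (vertical axis) for each gene tested. Grey points are genes, the dashed line marks equal SD, and the diamond is LEP, at 0.58 in HI and 1.23 in MOD calves and so above the line.

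The calves were then placed on the second principal component of all genes, computed without *LEP*, which held 20.1% of the variance and was above 0 in 14 HI and 5 MOD calves. The MOD calves fell on either side of a gap in this score, with 8 calves between -52.0 and -28.4 and 7 calves between -8.52 and 25.8. *LEP* values in the 8 calves ran from 9.35 to 61.3 with a median of 24.3. In the 7 calves they ran from 56.2 to 168 with a median of 120, which overlaps the HI range. The 7 lowest *LEP* values of all calves were in MOD calves below the gap. Calves 975 and 911 were among the 8, so 6 calves below the gap do not stand apart on the first component.

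Within neither set of MOD calves did a relation of *LEP* with the score pass the test. Pearson's r was 0.22 in the 8 calves below the gap (exact permutation test, p = 0.603) and Spearman's rho was 0.24 (exact permutation test, p = 0.582). In the 7 calves above it r was -0.04 (exact permutation test, p = 0.931) and rho was 0.11 (exact permutation test, p = 0.84). Over all 15 MOD calves r was 0.78 (permutation p = 0.0009, adjusted p = 0.009). Spearman's rho over them was 0.775 (permutation p = 0.00104, adjusted p = 0.0104), and r was 0.79 without the 2 calves farthest from the median score. The sets were cut at the widest gap in the score, after seeing the data. Tests in 8 and 7 calves, over narrower ranges of the score, cannot show that a relation is absent within the sets. Whether the relation over the 15 MOD calves is graded or a step at the gap was not tested. In the 15 HI calves r was 0.31 (permutation p = 0.265, adjusted p = 0.442) and rho was 0.44 (permutation p = 0.106, adjusted p = 0.354), and r was 0.21 without the 2 calves farthest from the median score.

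**Figure D5:**
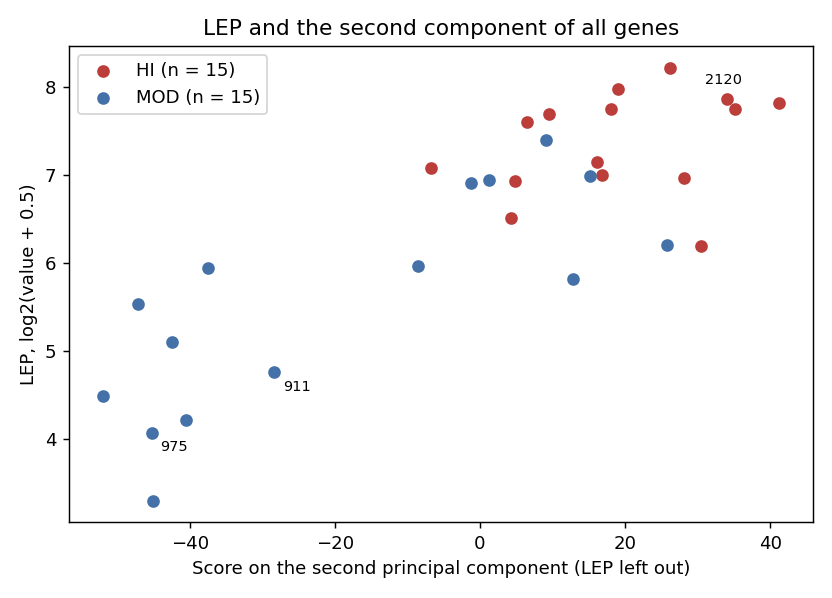
LEP as log2(value + 0.5) (vertical axis) against the score of each calf on the second principal component of all other genes tested (horizontal axis). Points are calves coloured by diet, with calves 2120, 975 and 911 marked. The 8 MOD calves with scores from -52.0 to -28.4 sit at the lower left, and the other 7 MOD calves sit beside the HI calves.

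Measures of the library were compared with *LEP* within each diet, as part of the same family of 10 relations to which p-values were adjusted. With the number of reads counted, r was -0.22 in HI calves (permutation p = 0.427, adjusted p = 0.589) and -0.001 in MOD calves (permutation p = 0.996, adjusted p = 0.996), while rho was -0.16 (adjusted p = 0.699) and -0.09 (adjusted p = 0.762). Without the 2 libraries farthest from the median number of reads, r was -0.33 and 0.06. With the TMM factor, r was -0.20 in HI calves (permutation p = 0.479, adjusted p = 0.589) and -0.37 in MOD calves (permutation p = 0.179, adjusted p = 0.442), while rho was -0.28 (adjusted p = 0.535) and -0.32 (adjusted p = 0.497). Without the 2 farthest libraries, r was 0.09 and -0.35. Over all calves no relation with depth or scaling passed the test in either diet. Without calves 2120, 975 and 911, which leaves 14 HI and 13 MOD calves, r with the reads counted was -0.38 and -0.11, and r with the TMM factor was -0.04 and -0.55. No test was run on these values.

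The share of reads taken by the 10 most abundant genes, computed without *LEP*, rose with *LEP* in MOD calves by rank, with rho at 0.71 (permutation p = 0.00404, adjusted p = 0.0202) and r at 0.58 (permutation p = 0.0207, adjusted p = 0.103). Without the 2 farthest calves r was 0.43. On either side of the gap described above, rho was 0.26 in the 8 MOD calves below it and -0.18 in the 7 above, with no test run. Sets this small, cut on a score that itself varied with *LEP*, cannot show whether the relation holds within them. In HI calves r was -0.18 (permutation p = 0.53, adjusted p = 0.589) and rho -0.20 (permutation p = 0.473, adjusted p = 0.676), and r was -0.48 without the 2 farthest calves. With the first principal component, r was 0.29 in HI calves (permutation p = 0.245, adjusted p = 0.442) and -0.33 in MOD calves (permutation p = 0.244, adjusted p = 0.442). Calves 975 and 911 decided the sign in MOD calves, where r without them was 0.25. The corresponding rho was 0.34 in HI (adjusted p = 0.497) and -0.12 in MOD calves (adjusted p = 0.741). Whether the difference between diets in any of these relations exceeds chance was not tested.

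Genes were ordered by the likeness of their pattern to that of *LEP*, measured as Pearson's r over the 30 calves on the log2 scale after the mean of each diet was subtracted. This is a description over 30 calves, which share their libraries and the gap among the MOD calves, and it carries no p-value. Of the genes tested, 542 had r of at least 0.5 and 441 had r of -0.5 or lower. Without calves 2120, 975 and 911 these numbers were 1042 and 793. The gene most like *LEP* was ENSBTAG00000020551, with r = 0.80 over the 30 calves, 0.76 within HI and 0.81 within MOD calves. Without calves 2120, 975 and 911 it came 8th, with r = 0.78. Its value was 125 ± 21.6 in HI and 70.8 ± 29.2 in MOD calves (SD, n = 15 each; log2 fold change 0.93, limma adjusted p = 0.000724). ENSBTAG00000000437 followed with r = 0.80, at 0.47 within HI and 0.90 within MOD calves, and it was first in the order without calves 2120, 975 and 911, with r = 0.85. It was the closest of the 5 highest within both sets of MOD calves, with r = 0.76 in the 8 below the gap and 0.67 in the 7 above. Since it was picked for its high r over these same calves, and no test was run within either set, this is a description only.

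The gene most opposed to *LEP* was ENSBTAG00000009012, with r = -0.77, at -0.18 within HI and -0.87 within MOD calves. Without calves 2120, 975 and 911 it came 18th among the opposed genes, with r = -0.74, and the first had r = -0.83. Its values were 3.03 ± 3.01 in HI and 304 ± 319 in MOD calves (SD, n = 15 each; log2 fold change -5.21, limma adjusted p = 6.7e-06). The HI values are low enough for the added 0.5 to shrink their log2 differences, which limits what r within HI calves can show. Inside the MOD group its r was -0.56 in the 8 calves below the gap and -0.64 in the 7 above. The gene was picked for its low r over these same calves, and no test was run within either set. ENSBTAG00000011280 came next with r = -0.76, at -0.49 within HI and -0.85 within MOD calves. Its log2 fold change of -0.53 did not reach the fold change threshold (limma, adjusted p = 0.0183).

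The genes that varied with *LEP* inside the diets were often genes that differed between the diets. Of the 100 genes with the highest r, 46 were called higher and 0 lower in HI calves, beside 4.36% called higher and 2.36% called lower of all genes tested (limma). Their median log2 fold change was 0.62. Of the 100 genes with the lowest r, 26 were called lower and 0 higher, with a median log2 fold change of -0.39. Without calves 2120, 975 and 911 the 100 highest held 36 genes called higher, and 42 of the 100 genes were the same. The 100 lowest then held 22 genes called lower.

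The median r of the 100 highest and of the 100 lowest genes differed between sets of calves. Whether it differed by more than chance was not tested. The genes were chosen by r over all 30 calves, with the diets centred but not scaled. MOD calves weigh more in that r, since the log2 SD of *LEP* was 1.23 in MOD and 0.58 in HI calves. For the 100 highest genes the median r was 0.37 within HI calves, 0.43 within the 8 MOD calves below the gap and 0.07 within the 7 above it. For the 100 lowest it was -0.36, -0.49 and -0.13. The same 30 calves give both the likeness and the change with diet, and no test of their relation was made.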

How the data were processed

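Polyadenylated RNA of 30 calves was sequenced from stranded libraries. Per the paper, the authors trimmed reads with Cutadapt, aligned them to UMD3.1 with STAR, counted them per gene and normalized with the TMM method of edgeR. The submitters' processing notes give cutadapt 2.6, STAR 2.6.1 and edgeR 3.5. The authors deposited 1 table of signal values: reads divided by the effective library size, multiplied by 1000000. Which strand column was counted is not given in the sources used here.

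Whole reads were recovered by dividing each value by the worth of 1 read in its library; 100% of values above 0 came out whole within 0.01 of a read. They entered the alternatives, the read counts, the counting intervals and the measures of the library. They did not enter the main comparison of diets. Diets were compared with limma 3.58.1 under R 4.3.3, with a variance trend, on log2(value + 0.5). Genes had to exceed a value of 1 in 15 or more libraries, and p-values were adjusted by Benjamini-Hochberg. Alternatives used edgeR 4.0.16 and DESeq2 1.42.0. Permutation tests were two-sided with 100000 resamples, or exact for sets under 10 calves. Groups came from the diet label. Calves were allocated within blocks of age, bodyweight and sire, which are not given per calf, so no block was fitted. Fits without a calf kept the genes tested with all calves. The limma fit with a variance trend, the exact test and the quasi-likelihood test were tried on simulated data, and the other fits were not.

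*LEP*, the lists and the tests were chosen with earlier results of these data known. Named genes were *LEP* and those of the 5 highest and 5 lowest r with it; the 2 extreme on each side are printed, since no table used here names them. The pairing of *LEP* with its identifier was taken as given. Planned lists of leptin signalling, regulators, adipocyte products and cell markers need gene names and were not analysed here. The share of abundant genes, the components, the sets of MOD calves and of 100 genes, and the spread on the value scale were added after seeing the data.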

Additional observations from a re-analysis of the deposited data

How the results depend on the processing

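*LEP* stayed called higher in HI calves, by more than 1.5-fold and below an adjusted p-value of 0.05, in all of the fits run, including those restricted to an adjusted p-value under 0.01. Its log2 fold change ran from 1.63 to 1.92 over the 30 fits that each left out 1 calf, lowest without MOD calf 2532 and highest without MOD calf 2551, and from 1.47 to 1.81 over the other fits. Its place by log2 fold change was 28 to 50 with 1 calf left out, 80 with the exact test, 81 with the quasi-likelihood test, 81 with DESeq2 and 63 with limma-voom, against 41; the cause was not tested. The difference in log2 spread, -0.51, ran from -0.58 to -0.40 with 1 calf left out (permutation p from 0.00624 to 0.0446), was -0.42 without calves 2120, 975 and 911 (p = 0.0685), and turned to 18.0 on the value scale (p = 0.15). Limma called 856 genes, 556 higher and 300 lower in HI. With 1 calf left out it called 723 to 991 genes, 471 to 643 higher and 249 to 351 lower. Library size alone gave 351 higher and 779 lower, 31.1% higher against 65.0%, with the median gene at -0.19 in place of -0.02. Without the fold change threshold 1790 genes were called, 932 higher and 858 lower, and with an adjusted p-value under 0.01 there were 504, 331 higher and 173 lower. Not run, since they need gene names, were *LEP* relative to adipocyte markers, the summed marker levels and the calls in gene lists.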
